A study of Mus musculus with 6 samples.

Results

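Cholesterol and fatty acid synthesis were examined through 36 genes in mouse regulatory T (Treg) cells differentiated with or without sorafenib (Sora), a multikinase inhibitor used against hepatocellular carcinoma. The genes were chosen by function, with earlier results of these data known. They were 8 mevalonate and isoprenoid enzymes, 11 sterol enzymes, 6 genes of SREBP control and sterol transfer, 7 genes of fatty acid synthesis and desaturation, and 4 genes of sterol efflux and its control by the liver X receptor (LXR). All 36 had a row in the table of 22939 genes, and all 36 passed the filter on low counts that left 13463 genes for testing. The lowest count of any of them in any library was 11, for Idi2 in a Sora-Treg library.

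Bulk RNA-seq was available for 6 libraries, 3 of ctrl-Treg cells (replicates 1 to 3) and 3 of Sora-Treg cells (replicates 1 to 3). Per the study's methods, naive CD4+ T cells came from knock-in mice (C57BL/6J background) whose Foxp3 locus drives GFP. They were activated through CD3 and CD28 and polarized with TGF-β1 and antibodies against IFN-γ and IL4, and the GFP+ cells were then sorted, so that both groups carried the reporter allele and the polarizing agents and differed, by their labels, in Sora. The labels gave neither the Sora dose of these libraries nor the animals or cultures behind the replicates, so the p-values below measure the spread between libraries, which may be technical. The model is one of T cells polarized in culture, not of Treg cells taken from a tumor.

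Animal cells build cholesterol from acetyl-CoA by way of mevalonate, the isoprenoid diphosphates, squalene and lanosterol, and they build fatty acids from malonyl-CoA, which are then elongated and desaturated. SREBP transcription factors drive both pathways: SCAP carries them out of the endoplasmic reticulum when sterols are scarce, and the INSIG proteins hold SCAP back when sterols are plentiful. LXR answers to oxysterols and turns on the transporters that export sterols, and activated T cells are known to raise lipid synthesis as they grow.

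Library totals ran from 30727686 to 37717324 counts, and levels are given as CPM, counts scaled to a common library total, after TMM scaling of the libraries by edgeR. The summed CPM of 5 T cell and Treg markers was 3455 to 3511 in ctrl-Treg libraries and 6156 to 6271 in Sora-Treg libraries. Ctla4, Il2ra and Cd3e rose (log2 fold change 1.53, 0.97 and 0.60) and kept their calls under all 17 alternative settings. Foxp3 and Cd4 were called higher by small margins (log2 fold change 0.07 and 0.06, adjusted p = 0.0405 and 0.0416), turned to -0.0410 and -0.0543 with the libraries scaled by their totals alone, and each lost its call under upper quartile scaling, with every gene of at least 1 count kept, and without any 1 of ctrl-Treg replicate 3, Sora-Treg replicate 1 or Sora-Treg replicate 3, Foxp3 also without ctrl-Treg replicate 2 and Cd4 also without ctrl-Treg replicate 1. The summed CPM of 7 myeloid markers was 93.4, 93.0 and 24.9 in ctrl-Treg replicates 1 to 3, and 22.3, 42.9 and 20.8 in Sora-Treg replicates 1 to 3. Of these 7 markers, 5 were lower in Sora-Treg cells and 2 were not called, and no marker was at 0 in a whole group. The sums for 4 B cell markers were 1.53 to 2.39 in ctrl-Treg and 0.251 to 0.365 in Sora-Treg libraries, with 3 called lower and 1 below the filter. Those for 2 CD8 T cell markers were 13.2 to 15.1 and 12.6 to 13.8. Of these, Cd8a was called lower (log2 fold change -0.71, adjusted p = 0.00872) and Cd8b1 was not called. The part of these markers in the levels below was not tested. In bulk samples, fewer cells of a type and less RNA per cell cannot be told apart.

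Compared with ctrl-Treg cells, Sora-Treg cells had higher levels of 19 of the 36 genes and lower levels of 6, and 11 were not called, where called means an adjusted p (edgeR quasi-likelihood test, Benjamini-Hochberg over all genes tested) under 0.05. Over all 13463 genes tested, 29.7% were called higher and 29.9% lower, or 59.6% in either direction, against 52.8% higher and 16.7% lower among the 36. The median log2 fold change of the 36 genes was 0.18, and the median over all genes tested was -0.004. With the libraries scaled by their totals alone, both medians moved down together, to 0.07 and -0.12. As the 36 genes were chosen with earlier results of these data known, these contrasts describe the list and do not test it. Most of the differences were small, as they were over all genes tested. Log2 fold changes within 0.5 of 0 were found in 26 of the 36 genes and in 9469 of the 13463 genes tested. By the study's limits for a differentially expressed gene (DEG), an adjusted p under 0.05 and a difference of more than 1 on the log2 scale, 2 genes were DEGs higher in Sora-Treg cells, Scd1 and Elovl6, and 2 were DEGs lower, Idi1 and Idi2. Over all genes tested, 6.3% were DEGs higher and 4.97% DEGs lower. In 28 of the 36 genes the 3 ctrl-Treg and the 3 Sora-Treg libraries did not overlap, against 63.7% of all genes tested.

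**Figure D1:**
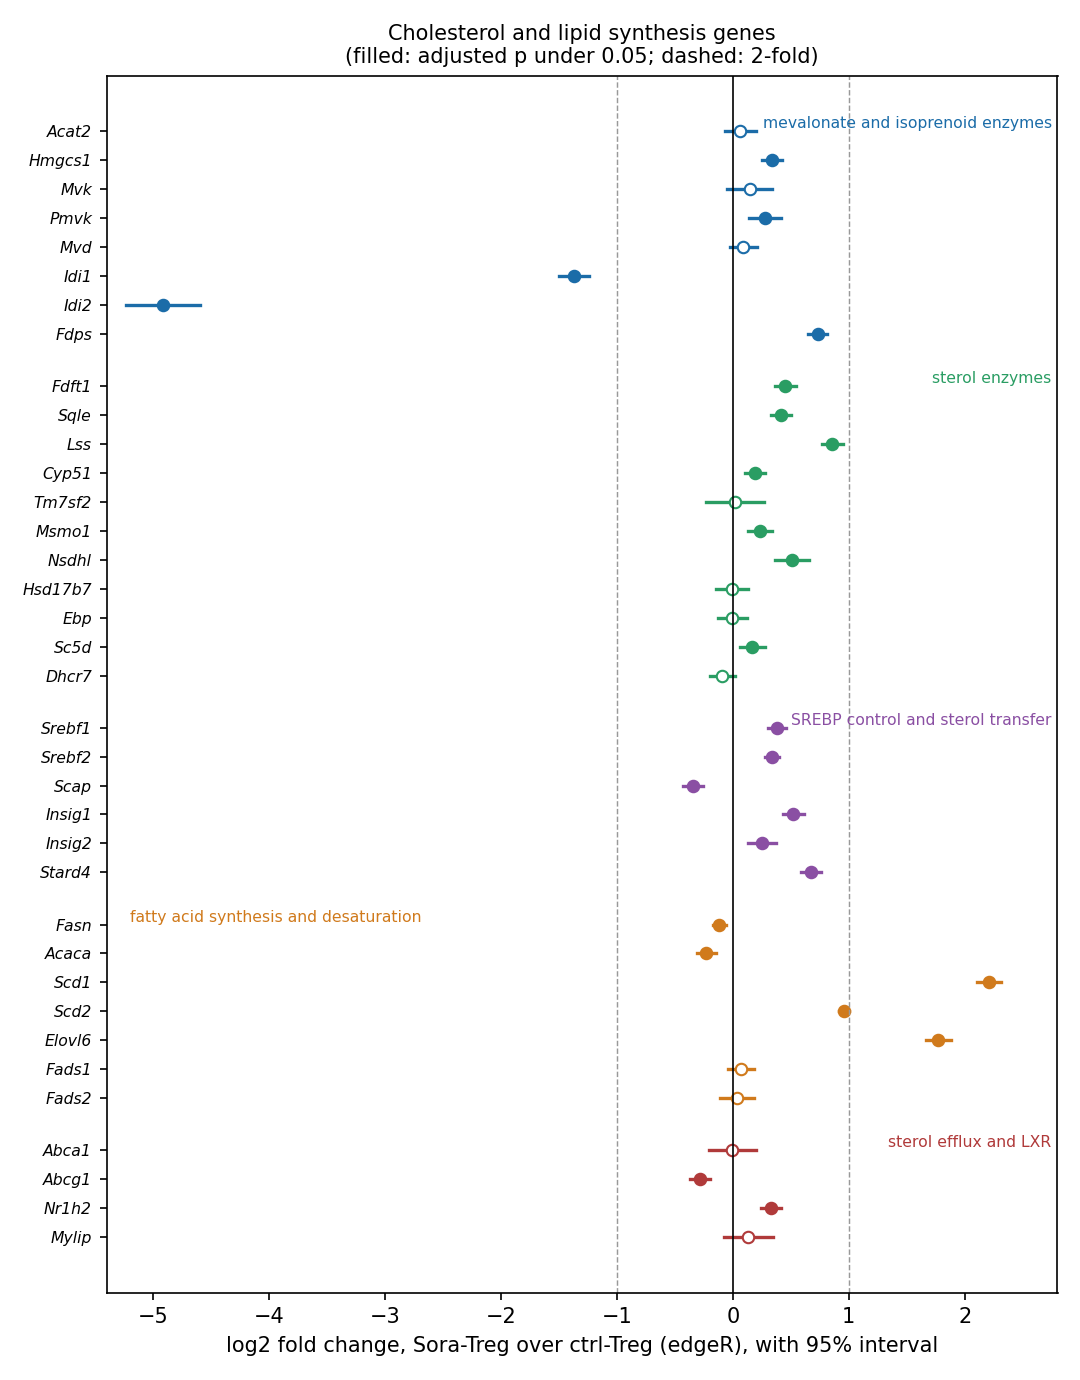
Log2 fold change of each of the 36 genes, Sora-Treg over ctrl-Treg libraries, by role (points: edgeR estimate; lines: 95% interval; filled points: adjusted p under 0.05; dashed lines: 2-fold). Idi1 and Idi2 lie at -1.37 and -4.91, Scd1 and Elovl6 at 2.21 and 1.77, and the other genes lie within the dashed lines.

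Among the 8 enzymes that lead from acetyl-CoA to farnesyl diphosphate, 3 rose in Sora-Treg cells, 2 fell and 3 were not called. That was 37.5% higher and 25% lower, against 29.7% and 29.9% of all genes tested. The falls stood at 1 step, the isomerization of isopentenyl diphosphate. Idi1, the isopentenyl diphosphate isomerase found in most tissues, was at 43.3, 47.9 and 47.8 CPM in the ctrl-Treg libraries, against 18.9, 17.4 and 17.4 CPM in the Sora-Treg libraries. All 3 Sora-Treg libraries were low and the groups did not overlap. The mean fell 2.59-fold, from 46.3 ± 2.64 to 17.9 ± 0.866 CPM (SD, n = 3 each), a log2 fold change of -1.37 ± 0.06 (SE, adjusted p = 8.79e-15).

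Idi2, which codes for a second isomerase of the same reaction and is known mainly from skeletal muscle, had the lowest log2 fold change of the 36 genes. It had 739, 703 and 622 counts in the ctrl-Treg libraries and 11, 22 and 29 counts in the Sora-Treg libraries, or 18.8, 19.3 and 19.5 CPM against 0.362, 0.690 and 0.814 CPM. Its transcript was thus well detected in every ctrl-Treg library, and near but above the CPM that 3 counts are worth, 0.0795 to 0.0976, in every Sora-Treg library. The mean fell 30.2-fold, from 19.2 ± 0.371 to 0.622 ± 0.233 CPM (SD, n = 3 each), and the log2 fold change was -4.91 ± 0.15 (SE, adjusted p = 1.03e-17). The estimate lay between -5.17 and -4.66 with any 1 library left out. On log2(FPKM + 1) values, where FPKM is fragments per kilobase of transcript scaled to the library total and the added 1 compresses low levels, it was -2.97.

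Per transcript length, Idi2 stood at 0.530 ± 0.0211 of the Idi1 level in ctrl-Treg cells and at 0.0450 ± 0.0183 of it in Sora-Treg cells (ratio of FPKM values, SD, n = 3 each). The 3 ratios of each group did not overlap, and an exact permutation test of 3 against 3 libraries cannot give a p below 0.1. The summed FPKM of both isomerases was 24.5, 26.3 and 26.3 in ctrl-Treg and 6.50, 6.12 and 6.18 in Sora-Treg libraries. Their transcripts shared no 50-base stretch with each other in the GENCODE M21 annotation. However, 17.7% of the 50-base words of Idi1 and 27.6% of those of Idi2 also occurred in genes with no row in the table. Part of the reads of Idi1 and Idi2 may therefore have been split or dropped.

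Idi1 and Idi2 are neighbors on chromosome 13 in the RefSeq gene order. On the Idi1 side, Wdr37 had a log2 fold change of -0.08 ± 0.05 (SE) and was not called (adjusted p = 0.155), but was called lower with the libraries scaled by their totals alone, under upper quartile scaling and on FPKM values. On the Idi2 side, Gtpbp4, which codes for a GTPase of ribosome assembly, fell with a log2 fold change of -0.70 ± 0.04 (adjusted p = 1.04e-13). Both flanking genes thus changed by less than either isomerase gene, on the estimates given, and they were chosen for their position.

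The 250 bases before the start site of these genes are shown to let the isomerases be compared with each other and with 2 enzymes of the pathway that rose, Hmgcs1 and Lss. The sequences come from the RefSeq promoter table (GRCm38.p6) and read 5′ to 3′ along the gene, and capitals mark the letters CCAAT (the NF-Y motif), GGGCGG (the Sp1 motif) or TCACCCCAC (letters of the sterol regulatory element), on either strand.
Idi1 promoter, GRCm38.p6 chr13:8885356-8885605, plus strand: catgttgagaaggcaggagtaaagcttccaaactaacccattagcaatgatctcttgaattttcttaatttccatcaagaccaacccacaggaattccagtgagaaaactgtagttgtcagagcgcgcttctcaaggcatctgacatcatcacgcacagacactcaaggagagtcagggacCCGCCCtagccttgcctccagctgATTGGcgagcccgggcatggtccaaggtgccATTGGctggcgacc
Idi2 promoter, GRCm38.p6 chr13:8952613-8952862, plus strand: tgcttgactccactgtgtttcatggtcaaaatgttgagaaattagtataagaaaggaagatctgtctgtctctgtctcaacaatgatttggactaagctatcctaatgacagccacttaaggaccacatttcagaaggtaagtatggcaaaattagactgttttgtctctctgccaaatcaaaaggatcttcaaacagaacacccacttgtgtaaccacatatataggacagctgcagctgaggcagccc
Hmgcs1 promoter, GRCm38.p6 chr13:119690101-119690350, plus strand: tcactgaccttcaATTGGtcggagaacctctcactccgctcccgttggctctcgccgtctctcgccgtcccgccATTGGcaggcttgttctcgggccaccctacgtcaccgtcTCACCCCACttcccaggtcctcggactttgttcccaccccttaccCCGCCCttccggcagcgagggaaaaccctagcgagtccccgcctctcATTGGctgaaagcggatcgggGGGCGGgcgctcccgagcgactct
Lss promoter, GRCm38.p6 chr10:76531355-76531604, plus strand: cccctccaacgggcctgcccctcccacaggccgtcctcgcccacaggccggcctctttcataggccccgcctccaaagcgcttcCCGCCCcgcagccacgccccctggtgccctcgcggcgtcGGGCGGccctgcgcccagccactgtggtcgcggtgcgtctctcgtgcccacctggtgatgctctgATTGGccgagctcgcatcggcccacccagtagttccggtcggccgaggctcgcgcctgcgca

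The Idi1 window held CCAAT letters at -45 and -14 and GGGCGG letters at -69 (position of the first base from the start site, either strand), and the Idi2 window held none of the letters searched. The Hmgcs1 window held TCACCCCAC at -137 and CCAAT letters at -237, -176 and -45. Of the 36 genes, 28 had an entry in the promoter table. CCAAT stood within 250 bases in 20 of these 28 (71.4%), against 33.8% of all 32851 promoters in the table and 40.5% of the 10701 tested genes that had an entry. GGGCGG stood in 22 of the 28 (78.6%), against 32.7% of all promoters and 61.6% of the tested genes. The E-box letters CACGTG stood in 6 of the 28 (21.4%), against 6.02% of all promoters and 9.57% of the tested genes. TCACCCCAC stood in 1 of the 28, Hmgcs1, against 0.496% of all promoters, and the same letters with an A before them in 0 of the 28 against 0.0731%. Both CCAAT and GGGCGG were found among genes that rose, fell and were not called. Of the 20 genes with CCAAT, 11 rose, 2 fell and 7 were not called. Of the 22 genes with GGGCGG, 10 rose, 2 fell and 10 were not called. Among all 36 genes 52.8% were called higher and 16.7% lower, and over all genes tested 29.7% and 29.9%. Whether either motif went with the direction of change was not tested. The motifs are matches of letters and not tested sites.

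The other mevalonate enzymes changed less. Hmgcs1, the synthase that makes HMG-CoA, was at 67.4, 63.4 and 63.9 CPM in ctrl-Treg and at 78.8, 83.6 and 83.9 CPM in Sora-Treg libraries, which did not overlap, a log2 fold change of 0.34 ± 0.04 (SE, adjusted p = 2.91e-07). Pmvk, the kinase of phosphomevalonate, rose from 21.4 ± 0.670 to 26.0 ± 1.17 CPM (SD, n = 3 each), a log2 fold change of 0.28 (adjusted p = 8.93e-04). Fdps, the synthase of farnesyl diphosphate that acts directly after the isomerases, was at 60.0, 60.4 and 56.4 CPM in ctrl-Treg and at 99.2, 94.8 and 99.5 CPM in Sora-Treg libraries. All 3 Sora-Treg libraries were high for Fdps, with a log2 fold change of 0.73 ± 0.04 (SE, adjusted p = 4.76e-13), the highest of the 8. Of its 50-base words, 26.2% also occurred in genes with no row in the table.

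Acat2, the thiolase that starts the pathway, was at 29.9, 34.5 and 36.6 CPM in ctrl-Treg and at 35.6, 35.4 and 34.5 CPM in Sora-Treg libraries, which overlapped, and was not called (log2 fold change 0.06, 95% interval -0.07 to 0.20, adjusted p = 0.400). Its near copy Acat3, which shares 39.1% of its 50-base words, had 19 to 35 counts in any library. Mvk, mevalonate kinase, was at 9.17 to 9.77 CPM in ctrl-Treg and at 10.4 to 10.7 CPM in Sora-Treg libraries, and Mvd, mevalonate diphosphate decarboxylase, was at 30.6 to 31.9 and 33.3 to 33.7 CPM. The groups of both genes did not overlap, and neither was called (adjusted p = 0.186 for Mvk and 0.150 for Mvd, log2 fold change 0.14 and 0.09, 95% intervals -0.05 to 0.34 and -0.02 to 0.20).

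**Figure D2:**
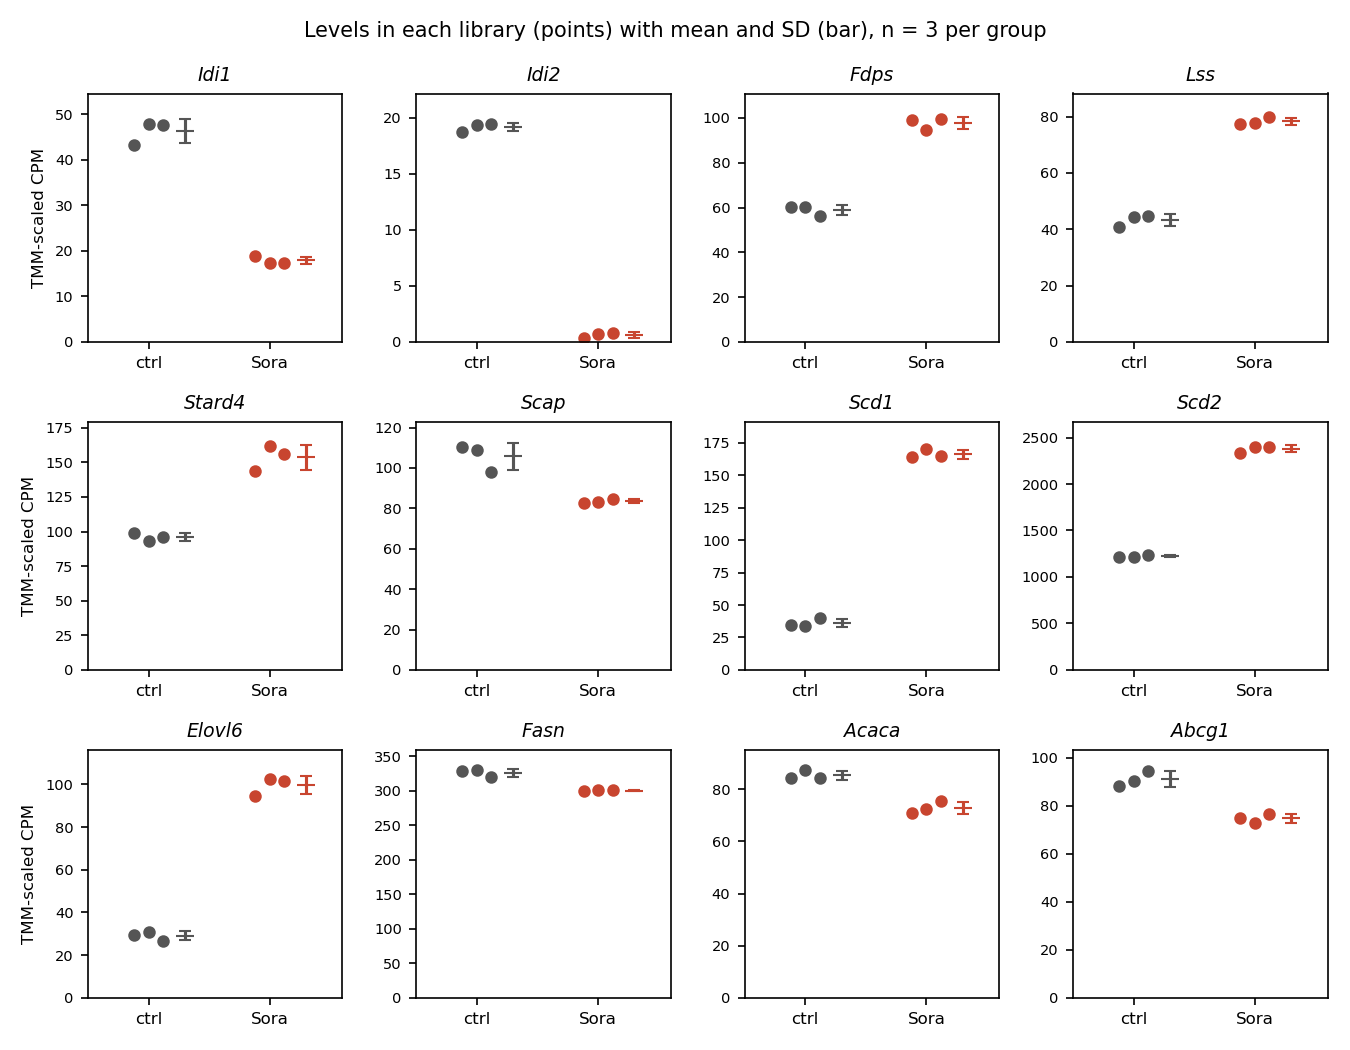
TMM-scaled CPM of 12 of the genes in each library (points; gray, ctrl-Treg; red, Sora-Treg), with the mean and SD of 3 libraries beside them and each axis starting at 0. The 12 genes are a selection, all from the 28 of the 36 genes whose groups do not overlap, against 63.7% of all genes tested. They run from Idi2 at 0.362 to 0.814 CPM in Sora-Treg cells to Scd2 at 2338 to 2401 CPM.

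Of the 11 sterol enzymes, which lead from farnesyl diphosphate to cholesterol, 7 rose in Sora-Treg cells and 4 were not called, with a median log2 fold change of 0.19 and none beyond 1. The 7 were 63.6% of the 11, against 29.7% called higher over all genes tested. Lss, the cyclase that forms lanosterol, was at 40.8, 44.3 and 44.6 CPM in ctrl-Treg and at 77.4, 77.8 and 79.7 CPM in Sora-Treg libraries. Each Sora-Treg library was above every ctrl-Treg library, and the mean rose 1.81-fold (log2 fold change 0.86 ± 0.04, SE, adjusted p = 1.27e-13), the highest of the 11. The enzymes just before it rose less. Fdft1, squalene synthase, was at 52.2, 53.2 and 49.0 CPM in ctrl-Treg and at 72.5, 68.4 and 71.0 CPM in Sora-Treg libraries (log2 fold change 0.45, adjusted p = 7.56e-09). Sqle, squalene epoxidase, was at 54.0, 56.5 and 57.4 CPM in ctrl-Treg and at 72.1, 75 and 76.5 CPM in Sora-Treg libraries (log2 fold change 0.41, adjusted p = 1.69e-08). Neither gene's groups overlapped. Fdft1 shares 774 exonic bases with Ctsb, a lysosomal protease gene on the opposite strand with 8222 to 13003 counts and a log2 fold change of 0.50 ± 0.03 (SE). The sources used here do not say whether strand was counted, so reads on the shared bases cannot be told apart. The FPKM values imply a length of 10420 bases for Fdft1. Opposite-strand overlaps of 166 exonic bases with Akap9 (log2 fold change 0.40 ± 0.04, SE) and 109 with Rai1 (0.10 ± 0.04) were found for Cyp51 and Srebf1.

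Downstream of lanosterol, 4 of 8 enzymes rose, against 29.7% of all genes tested. Nsdhl, a decarboxylating sterol dehydrogenase, was at 16.6, 16.0 and 15.8 CPM in ctrl-Treg and at 22.8, 22.7 and 23.6 CPM in Sora-Treg libraries, without overlap (log2 fold change 0.51 ± 0.07, SE, adjusted p = 1.30e-06). Msmo1, the sterol C4 methyl oxidase, rose from 40.1 ± 0.965 to 47.2 ± 1.44 CPM (SD, n = 3 each, adjusted p = 2.36e-04). Cyp51, the lanosterol demethylase, rose from 92.6 ± 2.91 to 106 ± 6.41 CPM (adjusted p = 4.70e-04), but lost its call with the libraries scaled by their totals alone and on FPKM values. The rise was 1.43-fold for Nsdhl, 1.18-fold for Msmo1 and 1.14-fold for Cyp51.

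Sc5d, the lathosterol desaturase, was at 45.3, 45.8 and 51.2 CPM in ctrl-Treg and at 50.2, 54.9 and 54.6 CPM in Sora-Treg libraries. The groups overlapped, as ctrl-Treg replicate 3 was above Sora-Treg replicate 1. Sc5d was called higher (log2 fold change 0.17 ± 0.05, SE, adjusted p = 0.00847), and the call was lost without ctrl-Treg replicate 1 (adjusted p = 0.0568), with the libraries scaled by their totals alone and on FPKM values.

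Tm7sf2, a sterol reductase, was at 7.56 to 9.06 CPM in ctrl-Treg and at 7.43 to 10 CPM in Sora-Treg libraries (log2 fold change 0.02, 95% interval -0.23 to 0.27, adjusted p = 0.904), and 532 of its exonic bases lie within Vps51 on the same strand. Hsd17b7, the ketosteroid reductase of the demethylation steps, was at 25.9 to 27.5 and 24.5 to 28.8 CPM (95% interval of the log2 fold change -0.15 to 0.13, adjusted p = 0.935). Ebp, a sterol isomerase, was at 30.6 to 34.1 and 30.5 to 33.2 CPM (95% interval -0.13 to 0.12, adjusted p = 0.969). The groups of these genes overlapped. Dhcr7, which reduces 7-dehydrocholesterol in the last step, was at 34.3, 33.9 and 35.6 CPM in ctrl-Treg and at 32.4, 32.9 and 32.1 CPM in Sora-Treg libraries, which did not overlap, and was not called (log2 fold change -0.09, adjusted p = 0.154). It was called lower with the libraries scaled by their totals alone (log2 fold change -0.21, adjusted p = 0.0020), under upper quartile scaling and on FPKM values.

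All 6 genes of SREBP control and sterol transfer were called, 5 higher and 1 lower, with a median log2 fold change of 0.36. Over all genes tested, 59.6% were called, 29.7% higher and 29.9% lower. Srebf2, the SREBP gene tied most to sterol synthesis, was at 249, 257 and 248 CPM in ctrl-Treg and at 318, 316 and 319 CPM in Sora-Treg libraries (log2 fold change 0.34 ± 0.03, SE, adjusted p = 3.66e-10). Srebf1, tied most to fatty acid synthesis, was at 130.0, 132 and 125 CPM in ctrl-Treg and at 176, 160.5 and 166 CPM in Sora-Treg libraries (log2 fold change 0.38 ± 0.04, SE, adjusted p = 7.57e-09). Both transcripts rose without overlap of the groups, and the ratio of their FPKM values, Srebf1 over Srebf2, was 0.588 ± 0.0104 in ctrl-Treg against 0.604 ± 0.0274 in Sora-Treg cells (SD, n = 3 each), a difference within the spread of the libraries. Transcript levels do not show how much SREBP protein was processed.

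Scap, the escort of the SREBPs, was at 110.2, 109 and 98.2 CPM in ctrl-Treg and at 82.8, 83.1 and 84.7 CPM in Sora-Treg libraries. It was the only one of the 6 that fell, with every Sora-Treg library below every ctrl-Treg library (log2 fold change -0.34 ± 0.04, SE, adjusted p = 3.10e-07). Insig1, which retains Scap in the endoplasmic reticulum and is itself an SREBP target, was at 59.5, 60.4 and 55.4 CPM in ctrl-Treg and at 83.6, 87.3 and 81.0 CPM in Sora-Treg libraries (log2 fold change 0.52 ± 0.04, SE, adjusted p = 6.38e-10). Insig2, which acts in the same way, rose from 29.3 ± 1.64 to 34.9 ± 1.42 CPM (SD, n = 3 each, log2 fold change 0.25, adjusted p = 8.37e-04), a call that was lost on FPKM values. The 6 libraries of each gene did not overlap between groups. Stard4, a carrier that moves cholesterol between membranes, was at 99.3, 93.0 and 96.2 CPM in ctrl-Treg and at 144, 162 and 156 CPM in Sora-Treg libraries, all high in Sora-Treg cells, and had the highest log2 fold change of the 6, 0.68 ± 0.04 (SE, adjusted p = 1.86e-12).

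The 7 genes of fatty acid synthesis and desaturation split by step. The desaturases of saturated acyl-CoA and the elongase rose, the 2 enzymes that make palmitate fell slightly, and the desaturases of polyunsaturated fatty acids were not called. Scd1, a stearoyl-CoA desaturase, was at 34.7, 33.7 and 39.8 CPM in ctrl-Treg and at 164, 170.4 and 165 CPM in Sora-Treg libraries. Every Sora-Treg library lay far above the ctrl-Treg libraries, and the mean rose 4.62-fold, from 36.1 ± 3.31 to 166 ± 3.54 CPM (SD, n = 3 each, log2 fold change 2.21 ± 0.05, SE, adjusted p = 1.55e-20). Scd2, a second desaturase isoform best known from brain, was at 1217, 1219 and 1233 CPM in ctrl-Treg and at 2338, 2398 and 2401 CPM in Sora-Treg libraries. It rose 1.94-fold (log2 fold change 0.96 ± 0.02, SE, adjusted p = 3.26e-20), without overlap and just under the DEG limit.

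Scd2 was the most abundant of the 36 transcripts per length in both groups, at 233 ± 1.62 FPKM in ctrl-Treg against 419 ± 5.57 FPKM in Sora-Treg cells (SD, n = 3 each). It took 0.127% of all counts in ctrl-Treg against 0.229% in Sora-Treg cells, moving from rank 83 to rank 33 among all genes by share of counts. The 36 genes together took 0.351% and 0.480% of all counts, and the 35 others without Scd2 0.224% and 0.252%. Scd1 stood at 0.0332 ± 0.00280 of the Scd2 level per length in ctrl-Treg against 0.0789 ± 0.00142 of it in Sora-Treg cells (ratio of FPKM values, SD, n = 3 each), without overlap. The 2 transcripts share few sequences, 2.97% of the 50-base words of Scd1 and 2.66% of those of Scd2.

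Scd1 and Scd2 lie close together on chromosome 19, with Scd4 between them in the RefSeq gene order. Scd4, a paralog, had 32, 30 and 43 counts in ctrl-Treg libraries, against 78, 70 and 73 counts in Sora-Treg libraries, which did not overlap, and rose with a log2 fold change of 1.2 ± 0.28 (SE, adjusted p = 7.21e-04). Scd3, the other paralog of this region, had 0 to 4 counts in any library and was not tested.

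Elovl6, the elongase that turns palmitate into stearate, the substrate of the desaturases, was at 29.4, 31.1 and 26.9 CPM in ctrl-Treg and at 94.7, 102 and 102 CPM in Sora-Treg libraries. All Sora-Treg libraries were high, and the mean rose 3.42-fold, from 29.1 ± 2.12 to 99.6 ± 4.26 CPM (SD, n = 3 each, log2 fold change 1.77 ± 0.05, SE, adjusted p = 2.09e-18). Acaca, the acetyl-CoA carboxylase that makes malonyl-CoA, was at 84.4, 87.4 and 84.3 CPM in ctrl-Treg and at 71.1, 72.3 and 75.4 CPM in Sora-Treg libraries. Fasn, fatty acid synthase, was at 328, 330.0 and 319 CPM in ctrl-Treg and at 299, 301 and 300.5 CPM in Sora-Treg libraries. Both fell without overlap, by 0.23 ± 0.04 for Acaca (adjusted p = 3.15e-05) and by 0.12 ± 0.03 for Fasn (adjusted p = 6.54e-04) on the log2 scale (SE). Of the 50-base words of Acaca, 30.4% also occurred in 202 other genes. The largest share in any gene with a row in the table was 0.262%, in Cryzl2.

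Fads1 and Fads2, which desaturate polyunsaturated fatty acids, were at 35.1 to 38.3 and 22.7 to 25 CPM in ctrl-Treg and at 38.2 to 39.4 and 22.4 to 25.5 CPM in Sora-Treg libraries. The groups overlapped and neither gene was called (log2 fold change 0.07, 95% interval -0.04 to 0.18, adjusted p = 0.254 for Fads1, and 0.03, -0.11 to 0.18, adjusted p = 0.696 for Fads2).

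**Figure D3:**
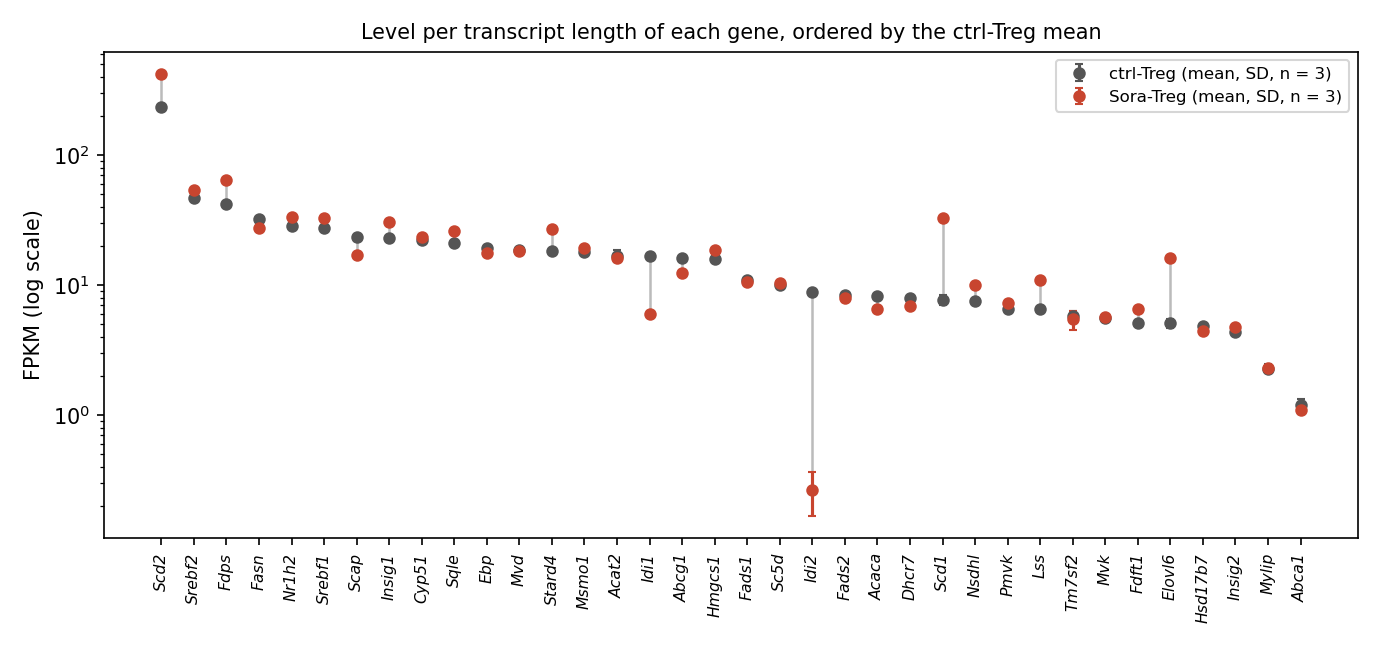
FPKM of each of the 36 genes (log axis; gray, ctrl-Treg; red, Sora-Treg; mean and SD of 3 libraries), ordered by the ctrl-Treg mean. Scd2 is highest in both groups (233 and 419 FPKM), and the widest gaps are those of Idi2 (8.90 against 0.266 FPKM), Scd1 (7.76 against 33.0 FPKM), Elovl6 (5.09 against 16.1 FPKM) and Idi1 (16.8 against 6.0 FPKM).

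The order of the levels per length changed accordingly. In ctrl-Treg cells Idi1 was at rank 16 and Idi2 at rank 21 of the 36 genes by FPKM, and in Sora-Treg cells they were at ranks 29 and 36. Scd1 moved from rank 25 to rank 5 and Elovl6 from rank 32 to rank 18. The other genes below 5 FPKM were Abca1, Mylip, Insig2 and Hsd17b7 in both groups, and Abca1 was lowest in ctrl-Treg cells, at 1.19 ± 0.137 FPKM. In ctrl-Treg cells Scd2 was followed by Srebf2 at 46.6 ± 0.774 FPKM and Fdps at 42.0 ± 1.61 FPKM, and in Sora-Treg cells by Fdps at 64.3 ± 1.82 FPKM and Srebf2 at 54.4 ± 0.356 FPKM (SD, n = 3 each).

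Of the 4 genes of sterol efflux and LXR, 1 rose, 1 fell and 2 were not called, against 29.7% higher and 29.9% lower over all genes tested. Nr1h2, which codes for LXRβ, was at 95, 107 and 99.2 CPM in ctrl-Treg and at 128, 122 and 129 CPM in Sora-Treg libraries, without overlap (log2 fold change 0.33 ± 0.04, SE, adjusted p = 3.86e-07). Abcg1, a transporter that exports cholesterol and an LXR target, was at 88.2, 90.5 and 94.8 CPM in ctrl-Treg and at 75, 72.9 and 76.6 CPM in Sora-Treg libraries (log2 fold change -0.28 ± 0.04, SE, adjusted p = 2.18e-06). The groups did not overlap. Abca1, a cholesterol transporter and another LXR target, was at 10.9 to 13.5 CPM in ctrl-Treg and at 10.9 to 12.6 CPM in Sora-Treg libraries, which overlapped (95% interval of the log2 fold change -0.20 to 0.20, adjusted p = 0.981). Mylip, an LXR target that marks lipoprotein receptors for degradation, was at 7.55 to 8.76 and 8.90 to 9.13 CPM and was not called (log2 fold change 0.13, 95% interval -0.08 to 0.35, adjusted p = 0.274).

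Among 99 other genes of the pathways that had a row, arranged in 5 lists, 91 were tested, of which 29 rose and 27 fell, and their median log2 fold change was -0.02. This division, 31.9% higher and 29.7% lower, stood near that of all genes tested, at 29.7% and 29.9%. From each list up to 4 called genes with the smallest adjusted p are described. Of 15 isoprenoid branch and prenylation genes tested, 2 rose and 4 fell. Chm and Rabggta, which serve the geranylgeranylation of Rab proteins, rose with log2 fold changes of 0.95 ± 0.07 and 0.64 ± 0.05 (SE, adjusted p = 8.20e-11 and 2.61e-10). Coq2, of ubiquinone synthesis, and Dhdds, of dolichol synthesis, fell by 0.48 ± 0.05 and 0.26 ± 0.05 on the log2 scale (adjusted p = 2.39e-08 and 4.48e-05).

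Of 16 genes of SREBP processing and reductase turnover, 5 rose and 3 fell, or 31.25% and 18.75%, against 29.7% and 29.9% of all genes tested. Rnf145, a ubiquitin ligase of this system, rose from 182 ± 3.69 to 239 ± 2.64 CPM, and Pgrmc1, a membrane protein that binds INSIG1, from 45.3 ± 2.03 to 56.1 ± 1.97 CPM. Paqr3, which tethers Scap and SREBP to the Golgi, fell from 14.6 ± 0.416 to 7.59 ± 1.11 CPM (SD, n = 3 each). The adjusted p was 9.68e-11 for Rnf145, 6.91e-06 for Pgrmc1 and 3.97e-08 for Paqr3. Paqr3 thus fell together with Scap, with log2 fold changes of -0.95 and -0.34.

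Of 19 genes of sterol uptake, transport and esterification, 6 rose and 8 fell, or 31.6% and 42.1%, against 29.7% and 29.9% of all genes tested. Vldlr, a lipoprotein receptor, was at 91.3, 93.7 and 89.0 CPM in ctrl-Treg and at 176, 179 and 181 CPM in Sora-Treg libraries (log2 fold change 0.97 ± 0.03, SE, adjusted p = 8.02e-17). Soat1, which esterifies cholesterol, was at 76.6, 76.1 and 75.6 CPM in ctrl-Treg and at 127, 137 and 131 CPM in Sora-Treg libraries (log2 fold change 0.79 ± 0.04, adjusted p = 2.37e-14). Both rose without overlap. Soat2, of the same reaction as Soat1, fell from 15.6 ± 0.828 to 8.69 ± 1.05 CPM (SD, n = 3 each). Its log2 fold change was -0.83 ± 0.10 (SE, adjusted p = 1.03e-07), and it was named after its values were seen. Npc2, the lysosomal cholesterol carrier, rose from 326 ± 3.88 to 424 ± 8.14 CPM, and Gramd1b, a sterol transfer protein at membrane contacts, fell from 120.0 ± 1.61 to 85.7 ± 0.349 CPM (SD, n = 3 each, adjusted p = 2.82e-11 and 3.99e-11).

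Of 16 LXR partner, LXR target and oxysterol genes, 12 were tested, of which 4 rose and 3 fell. That was 33.3% and 25% of the 12, against 29.7% and 29.9% of all genes tested. Rxra, a partner of LXR, fell from 39.7 ± 2.15 to 22 ± 2.59 CPM, and its paralog Rxrb rose from 69.5 ± 1.59 to 87.7 ± 1.95 CPM (SD, n = 3 each, adjusted p = 5.57e-10 and 1.14e-07). Arl4c, an LXR target that codes for a small GTPase, rose from 181 ± 5.96 to 280.5 ± 5.55 CPM, and Ncor1, a nuclear corepressor, from 353 ± 2.49 to 406 ± 12.5 CPM (adjusted p = 4.72e-14 and 1.63e-06), and the call of Ncor1 was lost on log2(FPKM + 1) values without a filter (adjusted p = 0.0502). The 2 DEGs of this list, named after their values were seen, were the lowly expressed Pltp (log2 fold change -1.53 ± 0.35, adjusted p = 6.06e-04), whose call was lost on log2(FPKM + 1) values without a filter (-0.81, adjusted p = 0.0631), and Sult2b1 (-1.50 ± 0.50, adjusted p = 0.0127), which has 4 to 24 counts and lost its call without ctrl-Treg replicate 2, ctrl-Treg replicate 3 or Sora-Treg replicate 2 (adjusted p = 0.0515, 0.0532 and 0.0611). Pltp was highest in the 2 ctrl-Treg libraries with the highest myeloid marker sums, at 4.14 and 3.84 CPM against 1.69 CPM in the third and 0.618 to 1.94 CPM in the Sora-Treg group, and the groups overlapped. Whether Pltp followed the myeloid markers was not tested.

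Of 29 genes tested for fatty acid supply, elongation and glycerolipid synthesis, 12 rose and 9 fell. That was 41.4% and 31.0%, against 29.7% and 29.9% of all genes tested. Dgat1, which makes triglycerides, was at 21.8, 20.3 and 21.0 CPM in ctrl-Treg and at 101, 101 and 98.7 CPM in Sora-Treg libraries, all high, and rose 4.77-fold (log2 fold change 2.25 ± 0.05, SE, adjusted p = 5.10e-21). Dgat2, of the same reaction as Dgat1, fell from 27.9 ± 2.01 to 15.2 ± 1.80 CPM (SD, n = 3 each). Its log2 fold change was -0.87 ± 0.08 (SE, adjusted p = 4.74e-09), and it was named after its values were seen. Acly, ATP-citrate lyase, the source of cytosolic acetyl-CoA, was at 274, 276 and 261 CPM in ctrl-Treg and at 398, 409.7 and 422 CPM in Sora-Treg libraries (log2 fold change 0.60 ± 0.03, adjusted p = 5.33e-14). Acly thus rose while Acaca and Fasn, which act after it, fell. Of the acyl-CoA synthetases, Acsl4 rose from 129 ± 5.68 to 195 ± 19.1 CPM and Acsl5 fell from 140.0 ± 3.68 to 102 ± 0.510 CPM (SD, n = 3 each, adjusted p = 5.59e-10 and 8.13e-11). The DEGs of this list beside Dgat1 and Scd4, named after their values were seen, had under 100 counts in every library: Fads3, Elovl4 and Me1 were higher (log2 fold change 2.31, 1.66 and 1.13, the last 0.96 without Sora-Treg replicate 1) and Elovl7 was lower (-1.25).

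**Figure D4:**
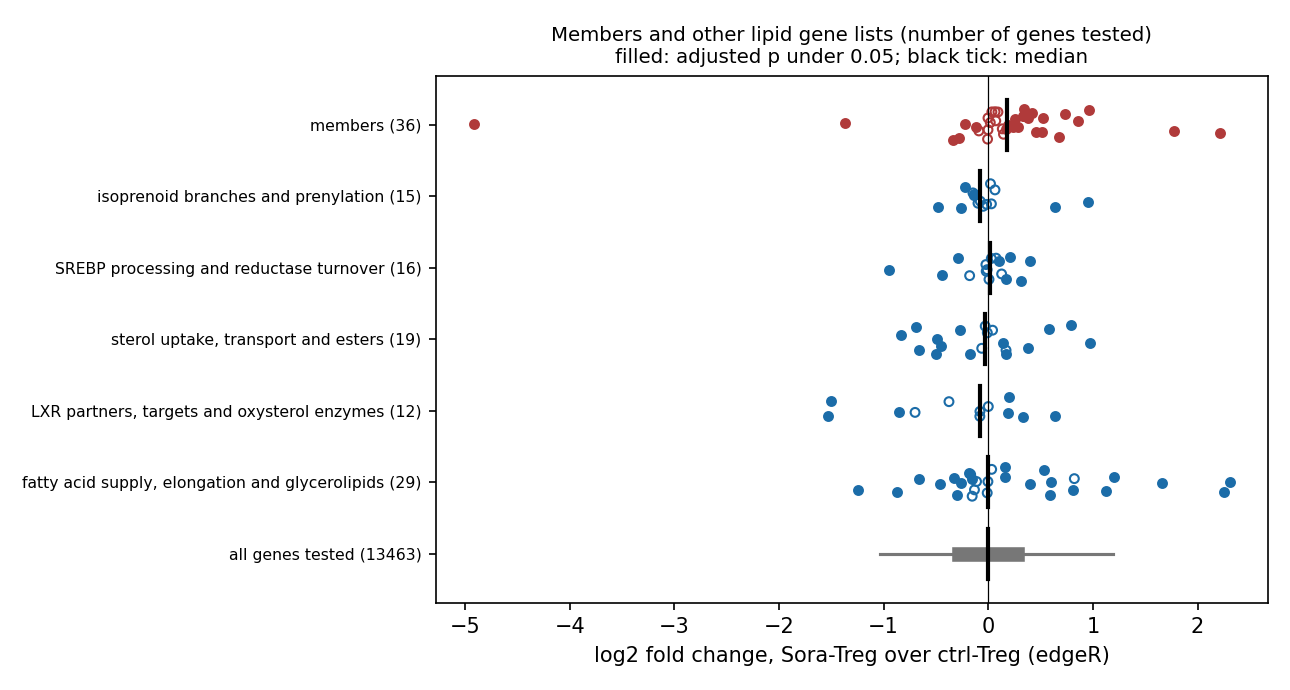
Log2 fold change of the 36 genes (red) and of 91 genes of 5 other lipid lists (blue), with filled points for an adjusted p under 0.05 and a black tick for each median. The gray bar gives all 13463 genes tested (thick, 25th to 75th percentile; thin, 5th to 95th percentile, -1.04 to 1.19), and the median of the 36 genes, 0.18, lies to the right of the other medians. The 36 genes and the lists were chosen with earlier results of these data known.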

How the data were processed

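Total RNA of sorted Treg cells was sequenced by the authors on the BGISEQ-500 platform, and the deposited table holds raw read counts per gene beside FPKM values for 6 libraries. The submitters' processing notes name fastp, HISAT2, HTSeq, R 3.2.0, DESeq2 and GRCm39, whereas the study's methods name Bowtie2 and GRCm38, so only promoters carry coordinates here. The FPKM values deposited by the authors equal the counts divided by the total of the library and by a fixed length for each gene, and are no separate measurement. Counts were tested here in R 4.3.3 with edgeR 4.0.16 (quasi-likelihood fit, TMM, filterByExpr, no covariate, Benjamini-Hochberg over 13463 genes). The fit was first run on simulated counts in which few genes changed, as many up as down, whereas 59.6% of genes were called here. The simulation had no scaling difference between the groups and so does not cover that case. With 3 counts worth 0.0795 to 0.0976 CPM, all 36 genes were measurable in each library, and the biological coefficient of variation was 4.29%. Libraries of a group differed beyond sampling noise. Alternatives were 3 scalings, 2 filters, DESeq2 1.42.0, a robust fit, a replicate block, 6 fits without 1 library, and limma 3.58.1 on log2(FPKM + 1) or log2(FPKM + 0.1), with a mean FPKM of at least 0.5 or no filter. All 36 genes are described, and the 4 called genes of each other list with the smallest adjusted p are named, except 1 that is not reported here. The members and lists were chosen with earlier results of these data known. Errors are SD over libraries or SE of the fit.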

Additional observations from a re-analysis of the deposited data

How the results depend on the processing

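Of the 36 genes, 24 kept their direction and their side of the threshold under all 17 alternatives, and the number called higher was 16 to 19, called lower 6 or 7, with Scd1 and Elovl6 as DEGs higher and Idi1 and Idi2 as DEGs lower throughout. Library totals alone moved the median of all genes by -0.12, changed the calls over all genes from 3994 higher and 4028 lower to 2862 and 5614, and gave 42 instead of 27 lower genes in the other lists. On log2(FPKM + 0.1), log2(FPKM + 1) and log2(FPKM + 1) without a filter, 2453, 2456 and 2577 genes were called higher, DEGs higher were 421, 275 and 274 instead of 848, and DEGs lower 423, 189 and 185 instead of 669; with the filter, 18 instead of 29 genes of the other lists were called higher on either pseudocount. The TMM factors were 1.038 to 1.044 in ctrl-Treg and 0.959 to 0.963 in Sora-Treg libraries. Scaling by library totals alone leaves these factors out, and so do the FPKM values. The cause of these differences was not tested.

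The members that changed sign were all uncalled. With library totals alone, on log2(FPKM + 0.1) and on log2(FPKM + 1), the last with or without the filter, the log2 fold change was -0.0506, -0.0480 and -0.0458 for Acat2, -0.0232, -0.0233 and -0.0223 for Mvd, -0.0961, -0.101 and -0.0862 for Tm7sf2, -0.0443, -0.0444 and -0.0410 for Fads1, and -0.0814, -0.0838 and -0.0756 for Fads2. The markers Foxp3 and Cd4, called higher, were at -0.0410, -0.0399 and -0.0394 and at -0.0543, -0.0546 and -0.0544 there. Under upper quartile scaling it was -0.0186 for Tm7sf2 and -0.00395 for Fads2. Ebp was at 0.000826 with the CPM filter and 0.00133 with RLE scaling, and Abca1 at 0.000909, 0.00132 and, with DESeq2, 1.31e-05. With any 1 library left out, the values ran from -0.0122 to 0.125 for Acat2, -0.120 to 0.0996 for Tm7sf2, -0.0681 to 0.0465 for Hsd17b7, -0.0365 to 0.0450 for Ebp, -0.00569 to 0.0882 for Fads2 and -0.0650 to 0.0962 for Abca1.

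With the replicate number as a block, 19 of the 36 genes were called higher and 6 lower, as without it, and Abca1 stood at 0.000954. Deviations from the group means correlated at -0.0438, 0.0591 and 0.0299 between same-numbered libraries, against -0.100 to 0.0693 between libraries of different numbers. With 3 libraries per group, these values cannot show whether same-numbered libraries shared an animal or a culture. With 3 libraries per group and no stated source for the replicates, the direction of small differences such as those of Acat2 and Mvd depended on the scaling.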
